A study of Mus musculus with 2 samples.

Results

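Mir103-1, Mir103-2, Mir107 and Mir33 are 4 mouse microRNA (miRNA) genes that lie in introns of metabolic genes, and they were examined here in newborn skeletal muscle. They were chosen by symbol, as the mir-103/mir-107 genes of the pantothenate kinase (Pank) genes and the mir-33 gene of Srebf2, from 2202 counted miRNA genes. That term covers every gene counted here. Of the 2202, 1032 had a symbol in a RefSeq table of miRNAs, and some detected ones, such as Snord43 and n-TSaga9, have other kinds of name. All 4 were in the count tables. Small RNA below 30 bases was sequenced from the gastrocnemius, a calf muscle, of B6CASTF1/J mice (hybrids of C57BL/6J and CAST/EiJ), at postnatal day 4, and the labels name no treatment. The samples form 1 group of 2 libraries, from females that the labels number apart but list under the same donor entry, so no condition could be set against another. Library 1 held 5569392 reads assigned to miRNA genes on their own strand and library 2 held 4336759. Levels are own-strand counts scaled to these totals (CPM), so that 1 read stood for 0.180 CPM in library 1 and 0.231 CPM in library 2. Detection required at least 2 CPM in each library, which 335 of the counted genes reached. The muscle is whole tissue, and with bulk RNA fewer cells of a type and less RNA per cell cannot be told apart.

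A miRNA hairpin is cut into short mature RNAs from its 5′ and 3′ arms (5p and 3p), and bases 2 to 8 of a mature RNA, the seed, pair with target transcripts. Pantothenate kinases carry out the committed step of coenzyme A synthesis, and the mir-103/mir-107 genes sit in them throughout vertebrates. In mice, miR-103 and miR-107 are known as regulators of insulin sensitivity in liver and fat. Srebf2 encodes SREBP2, the transcription factor that induces genes of cholesterol synthesis and uptake, and miR-33 is known to repress the cholesterol exporter Abca1 and genes of fatty acid oxidation.

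The 3p mature RNAs of the mir-103/mir-107 genes are shown first because they decide what a read can be assigned to. The sequences were taken from RefSeq (GRCm38.p6), where all 4 genes had an entry, with the seed in capitals and the 5′ end at the left.
miR-103-3p of Mir103-1 and of Mir103-2: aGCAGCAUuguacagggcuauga
miR-107-3p of Mir107: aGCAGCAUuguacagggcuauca
All 3 share the seed GCAGCAU, which no other annotated mouse mature RNA in the RefSeq table has. miR-103-3p was identical in both of its genes. It differed from miR-107-3p by 1 base, G22C, where the miR-103-3p base stands first and positions count from the 5′ end. The 5p arms also share a seed, GCUUCUU, but each gene has a 5p RNA of its own.
miR-103-1-5p: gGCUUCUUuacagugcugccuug
miR-103-2-5p: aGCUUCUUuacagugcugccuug
miR-107-5p: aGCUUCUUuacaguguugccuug
Between miR-103-1-5p and miR-103-2-5p the difference was G1A, and between miR-103-2-5p and miR-107-5p it was C16U. Mir33 has both mature RNAs to itself, and neither seed occurs in another annotated mature RNA.
miR-33-5p: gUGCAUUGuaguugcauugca
miR-33-3p: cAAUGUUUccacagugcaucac

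Each gene lies on the strand of its host and inside an intron, with no exon of any annotated host transcript over it (GENCODE M21, mm10). Introns are numbered in the principal transcript of each host. Mir103-1 (ENSMUSG00000065553.1) lies at chr11:35782396-35782481 on the plus strand, in intron 5 of the 6 introns of Pank3. Mir103-2 (ENSMUSG00000065563.1) lies at chr2:131288052-131288137 on the plus strand, in intron 5 of 6 of Pank2. Mir107 (ENSMUSG00000065594.1) lies at chr19:34820687-34820773 on the minus strand, also in intron 5 of 6, in Pank1. The 3 Pank hairpins thus shared the intron number, at 688, 454 and 326 bases past the upstream exon in Pank3, Pank2 and Pank1. Their introns differed in length, with 1740 bases in Pank3, 5801 in Pank2 and 7282 in Pank1. Mir33 (ENSMUSG00000065465.1) lies at chr15:82198122-82198190 on the plus strand, in intron 16 of 18 of Srebf2, 335 bases past the upstream exon of an intron of 1848 bases. The nearest other counted miRNA gene was 165471 bases from Mir103-1, 247654 from Mir103-2, 70074 from Mir107 and 195729 from Mir33.

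Mir107 had the most counted reads of the 4 genes, Mir33 and Mir103-2 lay near each other far below it, and Mir103-1 was at the edge of detection. Reads that match several places, as miR-103-3p of annotated length does, are left out of these counts. Mir107 had 1198 counts in library 1 and 1085 in library 2, or 215 CPM (95% Poisson interval 203 to 228) and 250.2 CPM (236 to 266). Its mean of 233 ± 24.8 CPM (SD, n = 2) ranked 148 among the 335 detected genes, whose median level was 123 CPM. Mir33 had 76 counts in library 1 and 47 in library 2, or 13.6 CPM (10.8 to 17.1) and 10.8 CPM (7.96 to 14.4), with a mean of 12.2 ± 1.99 CPM (SD, n = 2). It ranked 258, in the lower part of the detected genes. Mir103-2 had 64 counts in library 1 and 56 in library 2, or 11.5 CPM (8.85 to 14.7) and 12.9 CPM (9.75 to 16.8), with a mean of 12.2 ± 1.01 CPM (SD, n = 2) at rank 259. Mir33 and Mir103-2 therefore stood at neighbouring ranks, Mir33 was the higher in library 1 and the lower in library 2, and their counting intervals overlapped in both. Mir103-1 had 11 counts in library 1 and 6 in library 2, or 1.98 CPM (0.986 to 3.53) and 1.38 CPM (0.508 to 3.01). It was below 2 CPM in both libraries and is the member that was not detected. Each interval was computed from the count of a single library and reflects counting error of reads alone. Sequenced copies were not told apart by molecular identifiers, so the intervals need not cover the error in counting molecules.

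**Figure D1:**
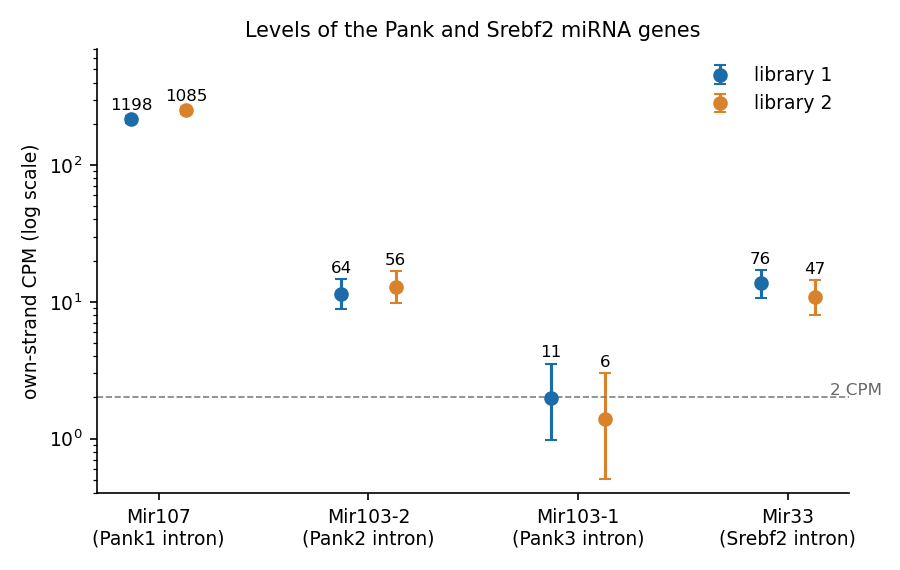
Own-strand CPM (log axis) of the 4 genes in library 1 (left point of each pair) and library 2 (right point), with 95% Poisson intervals and the read count above each point; the dashed line is the detection level of 2 CPM. Mir107 stands at 215 and 250.2 CPM, Mir103-2 and Mir33 between 10.8 and 13.6 CPM, and Mir103-1 below the line in both libraries.

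The genes nearest to the detected members in mean CPM show the scale of these levels. Above Mir107 came Mirlet7c-2 at 246 ± 2.74 CPM and Mir130b at 237 ± 27.2 CPM (SD, n = 2 each). Below it came Mir203 at 224 ± 31.3 CPM and Mir210, a gene known for its induction by low oxygen, at 203 ± 6.87 CPM. Mirlet7c-2 and Mir130b were higher than Mir107 in library 1 and lower in library 2, whereas Mir203 and Mir210 were lower than Mir107 in both. Around Mir33 and Mir103-2 stood Mir20b at 12.96 ± 0.718 CPM and Mir3071 at 12.5 ± 0.663 CPM above, and Mir326 at 12.2 ± 5.28 CPM and Mir192 at 12.1 ± 4.02 CPM below. Their values in single libraries ran from 8.44 CPM for Mir326 in library 1 to 15.9 CPM for the same gene in library 2, a wider span than that between the means of these genes. Together the 4 members held 0.0242% of the gene reads in library 1 and 0.0275% in library 2.

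**Figure D2:**
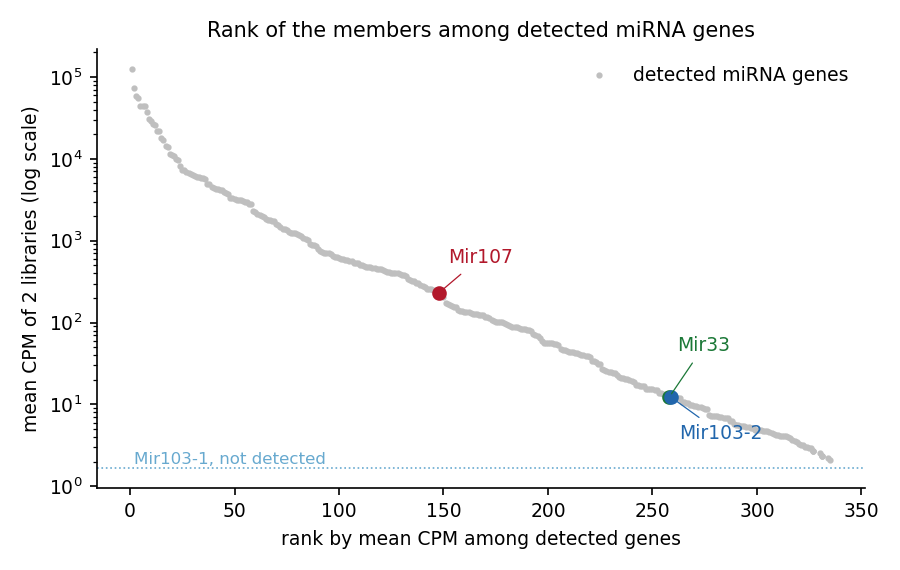
Mean CPM of 2 libraries (log axis) of the 335 detected miRNA genes (grey points) by rank, with the detected members coloured; the dotted line is the mean level of Mir103-1, which has no rank here. Mir107 lies near the middle at rank 148, and Mir33 and Mir103-2 lie together at ranks 258 and 259.

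Within the mir-103/mir-107 family, Mir107 held nearly all counted reads, and the split was close to the same in both libraries. It took 94.1% of 1273 family reads in library 1 (95% exact binomial interval 92.7 to 95.3) and 94.6% of 1147 in library 2 (93.1 to 95.8), a mean of 94.4% ± 0.344 (SD, n = 2). Mir103-2 took 5.03% (3.89 to 6.37) in library 1 and 4.88% (3.71 to 6.29) in library 2. Mir103-1 took 0.864% (0.432 to 1.54) and 0.523% (0.192 to 1.14). The intervals of the libraries overlapped for all 3 genes, and these shares do not depend on how the libraries are scaled. Mir107 had 18.7 reads per Mir103-2 read in library 1 (14.6 to 24.5) and 19.4 in library 2 (14.8 to 25.8). Mir103-2 in turn had 5.82 reads per Mir103-1 read in library 1 (3.04 to 12.2) and 9.33 in library 2 (4.03 to 26.5). A small RNA read covers a mature RNA nearly whole, so these counts were compared per gene and not divided by hairpin length.

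The shares describe reads that matched 1 place, and the sequence of each hairpin sets which reads those can be. Reads that matched several places stand in a line of their own in each table, with 36.9% of all reads in library 1 and 37.6% in library 2, and belong to no gene. A read that starts at base 1 of miR-107-3p matched only Mir107 among the counted genes once it was 22 bases long, which is where the differing base lies. At 18, 20 or 21 bases it matched Mir107, Mir103-1 and Mir103-2 alike. A read that starts at base 1 of miR-103-3p matched both Mir103 genes at the full 23 bases, and told them apart only at 25 bases, 2 past the annotated end. Reads from base 1 of any 5p RNA, and of either Mir33 RNA, matched 1 counted gene from 16 bases, the shortest length searched. Thus a miR-103-3p read that begins and ends as annotated matches several places and is counted for neither gene, whereas such a miR-107-3p read matches 1 counted gene. These matches are exact ones to the reference. The mismatches allowed when reads were assigned, and how reads from CAST/EiJ alleles were matched, are not stated in the sources used here, and both bear on a family whose 3p RNAs differ by 1 base. The tables give no counts by arm, so which arm the 64 and 56 reads of Mir103-2 came from is unknown. How many of the reads that matched several places were miR-103-3p or short miR-107-3p was not tested, and the levels of Mir103-1, Mir103-2 and Mir107 and their order are uncertain for that reason.

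The whole hairpins are shown because the family also shares bases outside its mature RNAs, which are in capitals.
Mir103-1 hairpin: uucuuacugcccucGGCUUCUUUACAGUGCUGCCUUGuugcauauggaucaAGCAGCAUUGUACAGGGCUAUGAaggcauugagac
Mir103-2 hairpin: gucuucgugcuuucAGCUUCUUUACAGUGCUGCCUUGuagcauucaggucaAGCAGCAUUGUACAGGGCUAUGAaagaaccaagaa
Mir107 hairpin: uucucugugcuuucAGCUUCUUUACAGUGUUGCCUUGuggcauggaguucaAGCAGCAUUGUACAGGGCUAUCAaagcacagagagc
Mir33 hairpin: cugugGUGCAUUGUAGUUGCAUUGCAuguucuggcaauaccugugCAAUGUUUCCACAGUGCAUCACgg
Aligned end to end, Mir103-1 and Mir103-2 were 80.2% identical, Mir103-1 and Mir107 80.5%, and Mir103-2 and Mir107 83.9%. The longest stretch in common was 27 bases between the Mir103 hairpins and 24 bases between either of them and Mir107. Mir33 shared at most 8 bases with any of the others. No member shared more than 13 bases with a counted gene outside the 4. Of all windows of 22 bases, 92.4% of those in Mir107 occurred in that gene alone, against 87.7% in Mir103-1, 84.6% in Mir103-2 and 100% in Mir33. Of the shared windows, those found in all 3 genes began just before the 3p RNA, those found in both Mir103 genes alone began at its first bases or within the 5p RNA, and a few before the 5p RNA were shared by Mir103-2 and Mir107. The search covered the counted hairpins on both strands and not the genome.

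**Figure D3:**
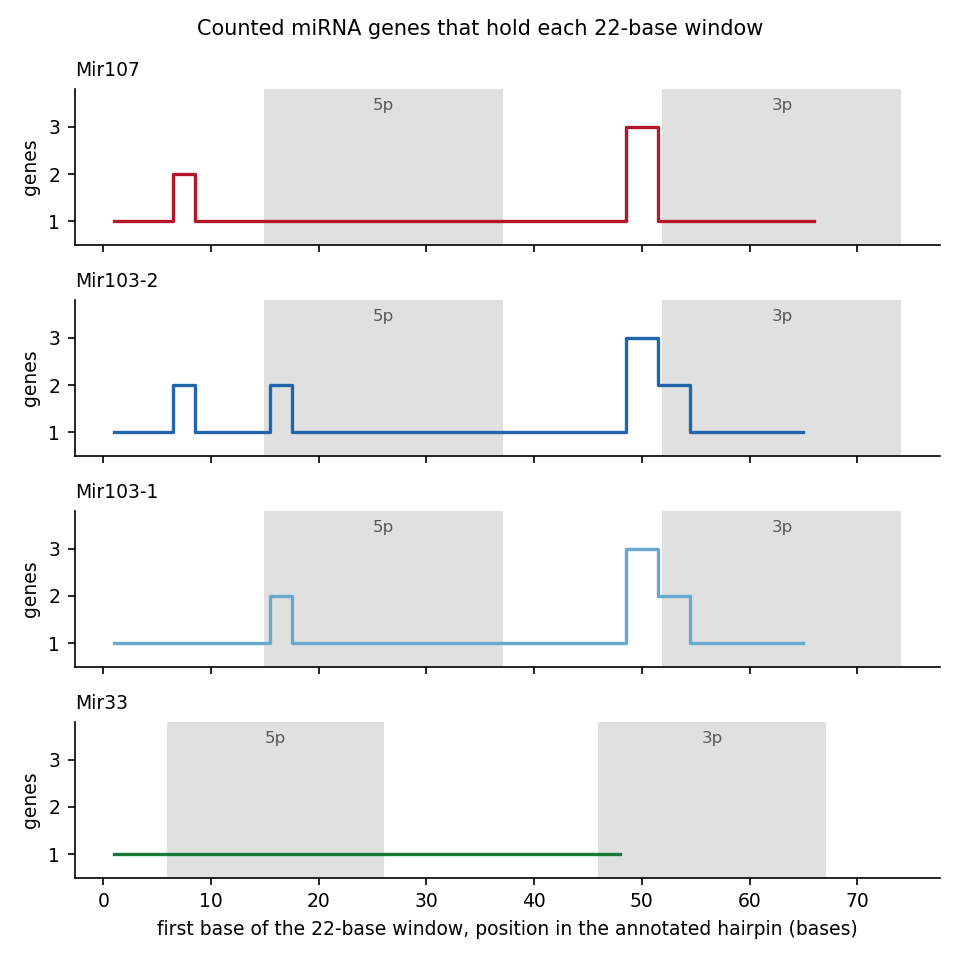
For each member, the number of counted miRNA genes that hold the 22-base window starting at each position of the hairpin; grey bands mark the 5p and 3p mature RNAs. The windows that begin just before the 3p band occur in 3 genes in the mir-103/mir-107 hairpins, those that begin at its first bases occur in 2 genes for the Mir103 hairpins and in 1 for Mir107, and every Mir33 window occurs in 1 gene.

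The shared mature RNA of the Mir103 genes places them among a minority of counted genes. Of the counted genes with a mature RNA in the RefSeq table, 94 had at least 1 mature RNA that is annotated with the same sequence at another gene, as Mir103-1 and Mir103-2 do, and 924 had none, as Mir107 and Mir33. Of the 94, 40 genes (42.6%) were detected, with a median of 51.4 CPM. Of the 924, 263 genes (28.5%) were detected, with a median of 165 CPM. Mir103-2 at 12.2 CPM lay below the median of its class, Mir107 at 233 CPM above that of its class and Mir33 at 12.2 CPM below it. No member had a read on the opposite strand in either library, and counting without regard to strand gave the same counts, so no antisense gene affects them.

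Between the libraries, Mir107 was a little lower in library 1, and neither Mir33 nor Mir103-2 passed the test. Each gene's counts were set against the library totals, scaled by TMM factors, in a two-sided exact binomial test, with Benjamini-Hochberg adjustment over the 335 detected genes and a threshold of 0.05. The test compares these libraries and no conditions. Of the 3 members tested, 1 was called, against 55.5% of all 335 genes in either direction, 28.7% lower and 26.9% higher in library 1. With 3 genes, that count cannot be set apart from the background. Mir107 had a log2 ratio of library 1 over library 2 of -0.20 (95% counting interval -0.32 to -0.08), with an adjusted p of 0.00287 in the exact binomial test. The call was lost with DESeq2 size factors, where the log2 ratio was -0.12 and the adjusted p 0.0780 in the same exact test, with TMM factors from all counted genes, and with a test that allows for spread beyond counting error. That last test, edgeR's exact test, took its spread from the differences between these same libraries over the detected genes. Its loss of most calls was therefore largely built in. Mir103-2 had a log2 ratio of -0.15 (-0.69 to 0.40) and an adjusted p of 0.690 in the exact test. Mir33 had the opposite sign, with a log2 ratio of 0.35 (-0.19 to 0.91) and an adjusted p of 0.294 in the exact test. Mir103-1, with 11 and 6 counts, was not tested and had a log2 ratio of 0.54 (-1.02 to 2.26). The use of TMM factors from the detected genes was settled after the result with all counted genes had been seen, so the call for Mir107 rests on a choice between scalings and not on the counts alone. In size, the ratio of Mir107 was at percentile 46.3 of all detected genes, that of Mir103-2 at 34.8 and that of Mir33 at 71.6, where the median gene had an absolute log2 ratio of 0.21.

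**Figure D4:**
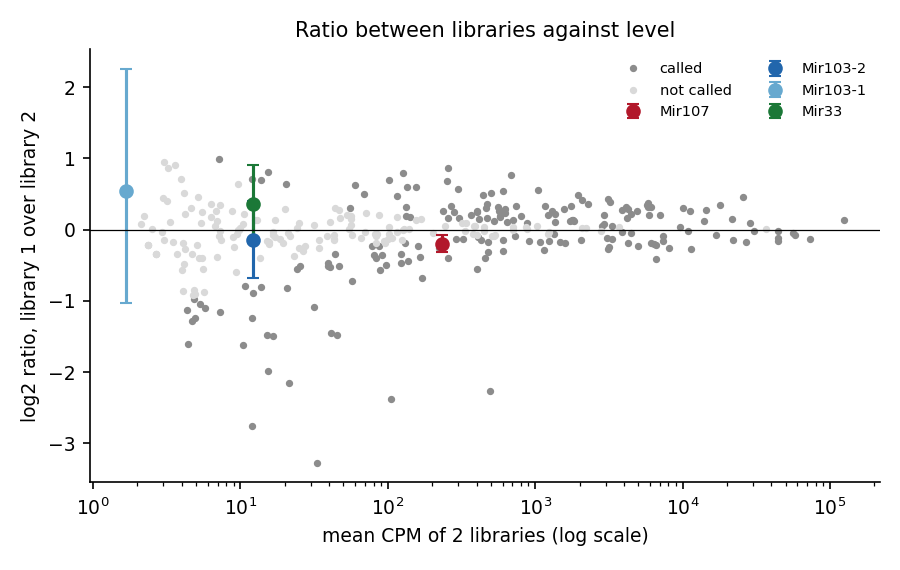
Log2 ratio of library 1 over library 2 against mean CPM (log axis) for the detected genes, dark grey where called and light grey where not, and for the 4 members with 95% counting intervals. Mir107 lies at -0.20 with an interval below 0, and the intervals of Mir103-2, Mir103-1 and Mir33 include 0.

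The ratio between the member with the most counted reads and the Srebf2 member needs no scaling. Mir107 had 15.8 reads per Mir33 read in library 1 (95% exact interval 12.5 to 20.1) and 23.1 in library 2 (17.2 to 31.6). These intervals overlapped in part, which does not show that the ratio was the same, and its difference between the libraries was not tested. Among the 23 other genes within 1.5-fold of Mir107 in mean CPM, 16 were called, with log2 ratios from -0.68 to 0.87. Among the 34 genes within 1.5-fold of Mir33, 12 were called, with log2 ratios from -2.76 to 0.81. The share called over all detected genes was 55.5%, and edgeR's exact test called 6 of the 335. At the depth of Mir33 and Mir103-2, a difference of the size seen for Mir107 was not detectable, since the counting intervals of both span more than 1 log2 unit.

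The mir-103/mir-107 genes belong to a wider set of miRNAs, the mir-15/mir-107 group, whose mature RNAs typically hold AGCAGC near the 5′ end and which are known for targets in the cell cycle and metabolism. AGCAGC lay within the first 8 bases of 15 of 1738 annotated mature RNA entries (0.863%). In miR-103-3p and miR-107-3p it begins at base 1, and in the other 12 of the 15 it begins at base 2, which shifts the seed by a base and gives AGCAGCA in miR-15, miR-16, miR-195, miR-322 and miR-497. A pair of these is shown beside miR-107-3p, with the seed in capitals, so that the shift can be read.
miR-107-3p of Mir107: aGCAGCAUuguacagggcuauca
miR-322-5p of Mir322: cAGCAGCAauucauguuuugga
miR-16-5p of Mir16-1 and of Mir16-2: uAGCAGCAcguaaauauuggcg
Of 13 listed genes of the group, 10 were detected, with a median of 408 CPM, against 123 CPM over all detected genes. Mir107 at 233 CPM ranked 8 among those 10, above Mir16-2 at 101 ± 33.0 CPM and Mir103-2. Mir322, which is known to rise in differentiating muscle cells, led the group at 22057 ± 1806 CPM, followed by Mir503 at 1371 ± 134 CPM and Mir195a at 689 ± 245 CPM (SD, n = 2 each). Mir195b had no read in either library, where 3 counts, the limit for a count of 0, are 0.539 CPM in library 1 and 0.692 CPM in library 2, and Mir497b had 1 read in library 1 and 0 in library 2. Mir16-1 and Mir16-2 share their 5p RNA, so their counts are uncertain as those of the Mir103 genes are.

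Between the libraries, Mir107 and Mir103-2 had log2 ratios below 0, whereas most of that group lay above 0 under each scaling tried. Of the 10 detected genes, 7 were called higher in library 1, 2 were called lower, namely Mir107 and Mir322, and 1, Mir103-2, was not called. Over all 335 detected genes, 26.9% were called higher and 28.7% lower. The median log2 ratio was 0.27, against -0.03 over all detected genes. The genes of the group are not all separate observations. Mir15a and Mir16-1 lie on chromosome 14, Mir15b and Mir16-2 on chromosome 3, Mir195a and Mir497 on chromosome 11, and Mir322 and Mir503 on chromosome X. Genes made from a common transcript would enter this count and median more than once, which was not tested. The called genes that were higher in library 1 ran from Mir497 at 0.16 (95% counting interval 0.04 to 0.27) to Mir195a at 0.76 (0.69 to 0.84). Mir322, the most abundant, was at -0.14 (-0.16 to -0.13), close to Mir107 at -0.20. With edgeR's exact test, none of the 10 was called. Its spread came from the differences between these same libraries, so that loss was largely built in. Markers of other cell types also differed in summed level between the libraries. All 4 leukocyte markers were detected, 3 of them called higher in library 1, with a sum of 657 CPM (library 1) and 408 CPM (library 2), and the endothelial list, with 1 of its 2 genes detected, had a sum of 29519 CPM (library 1) and 21932 CPM (library 2). The connective tissue list, with 3 of 4 detected, summed to 5341 and 4176 CPM, and the liver list, with both detected, to 184 and 833 CPM. The liver markers differed in direction: Mir122 had 169 CPM in library 1 and 824 CPM in library 2, whereas Mir192 had 14.9 and 9.22 CPM and was called higher in library 1 (log2 ratio 0.71). The part of these cells in the ratios was not tested.

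**Figure D5:**
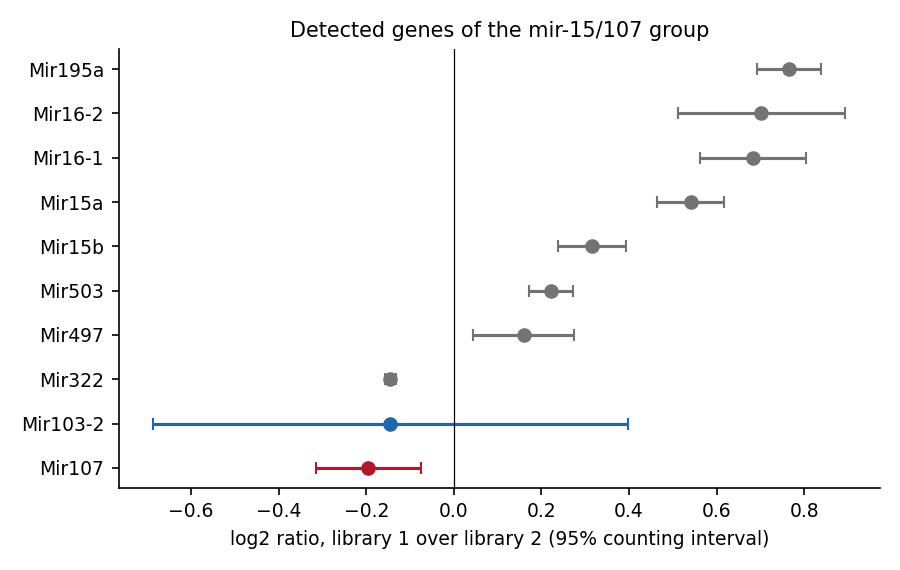
Log2 ratio of library 1 over library 2 with 95% counting intervals for the 10 detected genes of the mir-15/mir-107 group. Mir107 and Mir103-2 (coloured) and Mir322 lie below 0, and the other 7 genes lie between 0.16 and 0.76.

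Other miRNA genes known to act on cholesterol and lipid genes give the setting for Mir33. Of 23 listed genes, 22 were detected, with a median of 290.2 CPM, so that Mir33 at 12.2 CPM lay well below the middle of that list. Mir378a, in an intron of the coactivator gene Ppargc1b, was at 58024 ± 2753 CPM, Mir335 at 44684 ± 4075 CPM and Mir143 at 26778 ± 2565 CPM (SD, n = 2 each). Genes that, like miR-33, are known to repress Abca1 were spread over a wide range. Mir27b was at 4139 ± 594 CPM, Mir128-1 at 600.4 ± 96.2 CPM and Mir148a at 499 ± 120.0 CPM, whereas Mir144 was at 25.1 ± 0.872 CPM and Mir758 at 10.4 ± 0.317 CPM, the last being the nearest to Mir33. Mir96 was not detected, with 6 reads in library 1 and 2 in library 2. Between the libraries, 5 of the 22 were called higher in library 1, 10 were called lower and 7 were not called, with a median log2 ratio of -0.11. Over all detected genes, 26.9% were called higher, 28.7% lower and 55.5% in either direction, with a median of -0.03. With DESeq2 size factors, or with TMM factors from all counted genes, 12 genes of the list were called in place of 15. With edgeR's exact test, whose spread came from the differences between these same libraries, 1 of these genes was called in place of 15. The widest ratio was that of the liver gene Mir122, with 942 counts in library 1 and 3573 in library 2, a log2 ratio of -2.26 (95% counting interval -2.37 to -2.16). Mir33, which is present in liver and many other tissues, had the opposite sign at 0.35 and was not called. Several of these genes, among them Mir27a with Mir27b, Mir128-1 with Mir128-2, Mir26a-1 with Mir26a-2 and Mir30c-1 with Mir30c-2, belong to families with near-identical copies, and their counts are uncertain.

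The tissue label was checked by marker genes. Of 10 skeletal muscle markers, 8 were detected, led by Mir206 at 129336 CPM in library 1 and 119323 CPM in library 2, and the list summed to 130998 and 120703 CPM. Nearly all of that sum was Mir206. The median of the detected muscle markers was 85.1 CPM, below the 123 CPM of all detected genes, with Mir1a-2 at 17.0 CPM, Mir133a-1 at 5.24 CPM and Mir1a-1 at 2.20 CPM on average, and Mir1b and Mir133a-2 were not detected. Mir1a-1 with Mir1a-2, and Mir133a-1 with Mir133a-2, are gene copies as the Mir103 genes are. Reads that matched both copies belong to no gene, so these counts do not give the level of miR-1 or miR-133a. Of 7 neural markers, 1 was detected, Mir338 at 337 ± 12.2 CPM (SD, n = 2), and 3 had no read in either library. The neural genes at 0 were Mir124a-2, Mir124a-3 and Mir9-2. The other undetected ones had reads in library 2 only, with 10 counts for Mir9-3 (2.31 CPM), 3 for Mir9-1 and 1 for Mir124a-1. The Mir124a genes, and the Mir9 genes, are gene copies as well. Reads that matched several copies belong to no gene, so these low counts do not give the level of miR-124 or miR-9. Both erythroid markers were detected with sums of 96.8 CPM (library 1) and 119 CPM (library 2), as were both smooth muscle markers, with 25509 CPM (library 1) and 29100 CPM (library 2). Nearly all of the smooth muscle sum was Mir143, called lower in library 1 (log2 ratio -0.17), whereas Mir145a was called higher (0.12). Of the erythroid markers, Mir451a was called lower in library 1 (-0.40) and Mir144 was not called (0.09).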

How the data were processed

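The authors deposited raw counts per gene for each library, made on mm10 with GENCODE M21, per the description files that accompany them. No source used here names the aligner or the counter. The deposited counts are whole numbers in 3 columns, which hold reads counted without regard to strand, on the own strand and on the opposite strand, as their sums show. The own-strand column was used. The 4 lines that name no gene were left out, and reads assigned to genes made up 53.4% of library 1 and 51.1% of library 2, with 8.03% and 9.26% unmapped and 1.70% and 2.09% in no feature. All 2202 identifiers matched GENCODE M21.

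CPM, exact Poisson and binomial intervals at 95%, and the exact binomial test were computed in Python 3.11.15 with numpy 2.4.6, scipy 1.17.1 and pandas 2.3.3. TMM factors came from edgeR 4.0.16 (R 4.3.3). They were first computed from all counted genes, under which Mir107 was not called, and were then taken from the detected genes, under which it was, to follow an earlier analysis of these data. DESeq2 1.42.0 gave size factors as an alternative. The alternative test was edgeR's exact test with the common dispersion of the 2 libraries, whose square root was 22.0%. No further replicate gave a spread apart from the differences being tested. The test thus asks only whether a gene differs more than the detected genes do in general. Hairpins were folded with RNAfold 2.7.2 and aligned with biopython 1.88. The counting test was tried on simulated counts that held counting error alone, so that trial cannot show how it does with spread beyond counting error. The members and lists were chosen with earlier results of these data known. Genes named were the members, their 2 neighbours in mean CPM on each side, and genes of the fixed lists, of which those printed were picked for level, ratio or a known role after their values were seen. The list name Mir497a was matched to Mir497. The planned search of the whole genome was replaced by a search of the counted hairpins, since no genome sequence was used here. Alternatives covered scaling, detection, strand, pseudocounts, the test, window length and each library alone. The labels say only that the libraries came from separately numbered females with the same donor entry, and p-values measure the difference between these libraries.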

Additional observations from a re-analysis of the deposited data

Results flagged for a closer look

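Reads that matched several places made up 36.9% of all reads in library 1 and 37.6% in library 2, which is signal outside the gene counts of the members and lies far above 3 counts, the limit taken for an empty line. These lines held 3842752 reads in library 1 and 3187607 in library 2, or 3019 and 2779 reads for each read counted for Mir103-1, Mir103-2 and Mir107 together. The share of them that came from the mir-103/mir-107 genes was not tested.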

How the results depend on the processing

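Of the 3 tested members, none was called with DESeq2 size factors (0), with TMM factors from all counted genes (0, the scaling computed first and made an alternative after its result was seen) or with edgeR's exact test with a common dispersion (0, with 0 at an unadjusted p under 0.05). Mir107 then had log2 ratios of -0.12, -0.13 and -0.20, with adjusted p of 0.0780, 0.0647 and 1, against a range of 0.000794 to 0.0114 for the exact binomial test under plain totals, other detection levels and strand ignored. No member's ratio changed sign under any alternative run. By edgeR's exact test 0 genes of the mir-15/mir-107 group and 1 lipid-list gene were called, and 6 of all 335 genes. The spread in that test came from the same differences that it tested. The split of called genes, 90 higher and 96 lower in library 1, became 117 and 73 with DESeq2 size factors and 117 and 74 with TMM from all genes. Scaled to all reads in place of gene reads, the mean levels in CPM were 0.881 for Mir103-1, 6.37 for Mir103-2, 121 for Mir107 and 6.41 for Mir33, since the total is larger. With strand ignored, Mir103-2 was at 13.9 CPM and Mir107 at 265 CPM, since fewer reads of other genes are counted. At 18 bases, 76.8% of Mir103-1, 68.1% of Mir103-2 and 81.4% of Mir107 windows occurred in 1 gene, and at 24 bases 93.7% of Mir103-2 and 98.4% of Mir107 windows did. Detection at 1 count in either library added Mir103-1, and detection at 10 CPM kept the other 3. Matching windows to the genome was not run. Mir103-1 had 17 counts in both libraries together, and the part of depth and of read assignment in that number was not tested.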

Other observations

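RNAfold gave minimum free energies of -41.2 kcal/mol for Mir107, -35.8 kcal/mol for Mir103-1, -31.8 kcal/mol for Mir103-2 and -32.2 kcal/mol for the shorter Mir33, with 36, 33, 33 and 27 base pairs and 45.3% to 47.8% G and C. Mir103-1, the member with the fewest counts, had the second lowest free energy of the 4.

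AGCAGC within the first 8 bases of the mature RNA also occurred in Mir6342, Mir6353 and Mir6419, which are no members of the listed group and were named after their values were seen. All 3 were listed at 0 counts in both libraries.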
